A study of Mus musculus with 6 samples.

Results

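The growth hormone and insulin-like growth factor 1 (IGF1) axis was examined in the inguinal subcutaneous white adipose tissue (SC-WAT) of mice lacking the transcription factor EGR1. The 10 genes described here were the ligand gene *Igf1*, the receptor genes *Igf1r* and *Ghr*, the IGF-binding protein genes *Igfbp2*, *Igfbp3*, *Igfbp4*, *Igfbp5*, *Igfbp6* and *Igfbp7*, and the protease gene *Pappa*. They were 10 of the 47069 genes in the deposited counts, and 9 of them were among the 17667 genes with enough reads to be tested. They were chosen by name, with their difference between the genotypes in these same mice already known, so that difference is a description here and no test of it is used as support.

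RNA was sequenced from the fresh inguinal fat pads of 2-week-old female mice, 3 *Egr1*+/+ and 3 *Egr1*-/-, with 1 library per mouse. The labels give the strain of all 6 as C57BL/6, and the methods of the study give C57BL/6 J. The *Egr1*-/- allele carries a *LacZ* insertion and a frameshift before the DNA-binding domain, and it is inactive in the whole body, so that blood vessels, stroma, immune cells, liver and pituitary lacked EGR1 as well as adipocytes. The mice came from several litters, and 1 mouse of each genotype were littermates. The counts of *Egr1* itself were 353, 241 and 711 for *Egr1*+/+ and 103, 84 and 57 for *Egr1*-/-, a log2 fold change of -2.19 (SE 0.299). Its adjusted p was 0.0879 with edgeR's quasi-likelihood test and 1.86e-10 with DESeq2. The edgeR test thus did not call even the inactivated gene.

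Growth hormone binds the receptor encoded by *Ghr*, which signals through the kinase JAK2 and the transcription factor STAT5 and induces *Igf1* in liver and in other tissues, fat included. IGF1 acts through a receptor tyrosine kinase encoded by *Igf1r*. Outside the cell most IGF1 is held by IGF-binding proteins, and proteases such as pregnancy-associated plasma protein A, the product of *Pappa*, release it by cutting them. In white fat the IGF1 axis is known for its part in the growth and differentiation of preadipocytes.

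Between 29661984 and 42357981 reads per mouse fell on genes, and 50.0% to 66.3% of them fell on mitochondrial genes. The tissue label was checked against marker genes: all 8 adipocyte markers were expressed, with a summed level of 6221 to 6680 CPM in *Egr1*+/+ mice and 5002 to 6042 CPM in *Egr1*-/- mice, where CPM is the count scaled to a common library size by TMM normalization. Skeletal muscle markers varied from mouse to mouse, from 184 to 2960 CPM in *Egr1*+/+ mice and from 86.0 to 2385 CPM in *Egr1*-/- mice, and were highest in *Egr1*+/+ replicate 2 and *Egr1*-/- replicate 3. Without those 2 libraries the log2 fold changes described below were -0.92 for *Igf1*, -0.66 for *Ghr*, -0.10 for *Igf1r*, -0.56 for *Igfbp5*, -0.63 for *Igfbp7* and 0.20 for *Pappa*, and those of *Igfbp3*, *Igfbp4* and *Igfbp6* are given with each gene.

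The sequences just before the RefSeq start sites are shown for *Ghr*, *Igf1* and *Igfbp6*, the 3 genes of the axis with the lowest point estimates in *Egr1*-/- mice. EGR1 is a zinc finger protein that binds GC-rich DNA, and its consensus GCGNGGGCG was searched on both strands of RefSeq windows (build GRCm38.p6) from 250 bases before to 50 bases after each start site. Windows were found for 9 of the 10 genes, 11 windows in all, and *Pappa* had none. The consensus was found in 1 of the 11 windows, that of a *Ghr* start site at chr15:3583303-3583602 on the minus strand, 97 bases before that RefSeq start. GENCODE begins *Ghr* further upstream, at 3583492, so the match lies inside the gene as GENCODE draws it. The consensus was present in 5.55% of all 32851 windows and in 9.66% of the 15153 windows of tested genes. The 250 bases before the start are printed 5′ to 3′ in lower case, with the consensus match in capitals.
Ghr, chr15:3583353-3583602, minus strand: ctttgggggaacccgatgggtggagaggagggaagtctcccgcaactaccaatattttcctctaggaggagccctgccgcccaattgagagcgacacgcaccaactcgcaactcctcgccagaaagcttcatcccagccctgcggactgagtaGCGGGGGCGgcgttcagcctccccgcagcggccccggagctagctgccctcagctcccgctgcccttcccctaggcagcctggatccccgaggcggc
Igf1, chr10:87860861-87861110, plus strand: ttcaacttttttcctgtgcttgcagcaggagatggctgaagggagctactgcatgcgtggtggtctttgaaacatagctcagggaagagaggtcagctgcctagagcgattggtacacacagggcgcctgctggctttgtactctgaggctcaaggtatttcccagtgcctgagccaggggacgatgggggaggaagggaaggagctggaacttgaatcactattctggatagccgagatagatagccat
Igfbp6, chr15:102143936-102144185, plus strand: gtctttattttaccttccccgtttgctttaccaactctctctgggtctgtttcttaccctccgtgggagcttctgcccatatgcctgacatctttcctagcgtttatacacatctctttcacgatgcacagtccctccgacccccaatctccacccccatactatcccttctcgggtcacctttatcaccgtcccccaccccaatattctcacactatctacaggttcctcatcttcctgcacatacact
The *Igf1* and *Igfbp6* windows hold no match to these letters. The RefSeq start site of *Igf1* lies inside the gene as GENCODE draws it, downstream of the first annotated base. For *Igfbp6* the searched window ends at 102144235, before the first base that GENCODE annotates, 102144362. The bases directly before that annotated start of *Igfbp6* were therefore not searched. The printed windows of *Ghr* and *Igf1* differed in base composition, with 67.0% and 52.3% G and C over the 300 bases, and that of *Igfbp6* held 49.7%. A second *Ghr* window, at chr15:3581793-3582092 and not printed, held no match and 52.3% G and C. A match is a string of letters and not a measured site, and no binding data were analysed here.

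Across the 9 tested genes of the axis, 7 had a lower point estimate in *Egr1*-/- mice and 2 a higher one, and their median on the log2 fold change scale was -0.52, against 0.0011 over all tested genes. None passed the threshold of edgeR's quasi-likelihood test, where adjusted p ranged from 0.160 to 0.977. That test called only 3 genes of 17667 (0.0170%), all of them higher. At an unadjusted p under 0.05 the same test gave 6 of the 9 axis genes, all lower, against 10.7% of all tested genes in either direction. With DESeq2, the tool that the study used, 4 of the 9 passed (*Igf1*, *Ghr*, *Igfbp5* and *Igfbp6*), all lower. Over all genes DESeq2 called 132 higher and 202 lower, 2.05% of the 16275 genes for which it gave an adjusted p. The number of genes called thus depended strongly on the test. For 6 of the 9 (*Igf1*, *Ghr*, *Igfbp4*, *Igfbp5*, *Igfbp6* and *Igfbp7*) every *Egr1*-/- mouse was below every *Egr1*+/+ mouse in CPM, which was so for 8.10% of all tested genes. No axis gene had every *Egr1*-/- mouse above every *Egr1*+/+ mouse, which held for 8.15% of tested genes. With 3 mice against 3, a two-sided exact permutation test of a single gene cannot go below p = 0.1. Since the RNA came from whole fat pads, fewer cells of a type and less RNA per cell cannot be told apart in any of these values.

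**Figure D1:**
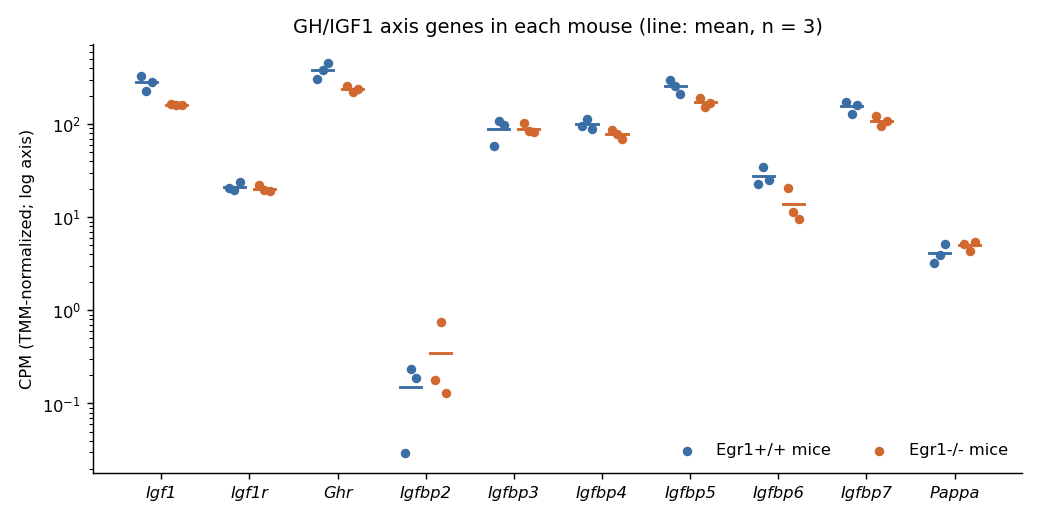
Level of each of the 10 axis genes in every mouse, in TMM-normalized CPM on a log axis, with blue points for the 3 *Egr1*+/+ mice, orange points for the 3 *Egr1*-/- mice and a line at each mean. The orange points lie below all blue points for *Igf1*, *Ghr*, *Igfbp4*, *Igfbp5*, *Igfbp6* and *Igfbp7*, while those of *Igf1r*, *Igfbp3*, *Pappa* and the nearly silent *Igfbp2* overlap the blue ones.

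*Igf1* (ENSMUSG00000020053.18), which encodes the ligand of the axis, lies on chromosome 10 at 87858265-87937042 of GRCm38, on the plus strand. It had 332, 229 and 284 CPM in the 3 *Egr1*+/+ mice and 165, 161 and 161 CPM in the 3 *Egr1*-/- mice. The *Egr1*-/- mice were nearly alike, whereas the *Egr1*+/+ mice spread over a 1.45-fold range, and the lowest of them was still above every *Egr1*-/- mouse. The means were 281.5 ± 51.4 and 162 ± 2.14 CPM (SD, n = 3 each), and the log2 fold change was -0.80 (SE 0.150). It lay between -0.92 and -0.68 in the 6 fits that left out 1 mouse each, with an edgeR adjusted p of 0.160 over all mice.

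Of the receptor genes, *Ghr* was separated between the genotypes and *Igf1r* was not, and whether their differences differ from each other was not tested. *Ghr* (ENSMUSG00000055737.12), the growth hormone receptor gene on chromosome 15 at 3317760-3583492 on the minus strand, had 306, 384 and 448 CPM in *Egr1*+/+ mice and 254, 224 and 237 CPM in *Egr1*-/- mice. The 2 genotypes did not overlap, although the gap between the lowest *Egr1*+/+ mouse and the highest *Egr1*-/- mouse was smaller than the range within the *Egr1*+/+ mice. The means were 379 ± 71.0 and 238 ± 15.3 CPM, and the log2 fold change was -0.67 (SE 0.157), with an edgeR adjusted p of 0.204. *Igf1r* (ENSMUSG00000005533.9), the IGF1 receptor gene on chromosome 7 at 67952827-68233668 on the plus strand, had 20.7, 19.5 and 23.8 CPM in *Egr1*+/+ mice and 22.0, 19.5 and 19.1 CPM in *Egr1*-/- mice. These values overlapped, with a log2 fold change of -0.08 (SE 0.122) that ranged from -0.14 to 0.0048 when 1 mouse was left out. Scaling by total counts instead of TMM, which moved the median of all genes by -0.15 on the log2 scale, gave -0.24 for *Igf1r*.

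Among the binding protein genes, *Igfbp6* had the lowest point estimate. Its product binds IGF2 more tightly than IGF1. *Igfbp6* (ENSMUSG00000023046.6; chromosome 15, 102144362-102149511, plus strand) had 23.0, 34.5 and 25.4 CPM in *Egr1*+/+ mice and 20.5, 11.3 and 9.57 CPM in *Egr1*-/- mice. *Egr1*-/- replicate 1 was close to the lowest *Egr1*+/+ mouse and apart from the other two *Egr1*-/- mice. The log2 fold change was -1.0 (SE 0.275), between -1.40 and -0.80 when 1 mouse was left out, and -0.61 without the 2 libraries richest in muscle markers. Without *Egr1*-/- replicate 1, *Igfbp6* was the only axis gene past the edgeR threshold, with a log2 fold change of -1.40 and an adjusted p of 0.0484, while it passed in 4 of the 14 alternatives, with adjusted p from 6.34e-07 without the filter on low counts to 0.720.

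*Igfbp5* (ENSMUSG00000026185.8; chromosome 1, 72857932-72874884, minus strand), whose product binds extracellular matrix as well as IGFs, had 298, 258 and 210 CPM in *Egr1*+/+ mice and 192, 153 and 169 CPM in *Egr1*-/- mice. The genotypes were separated, with a log2 fold change of -0.58 (SE 0.158) and an edgeR adjusted p of 0.248. Its neighbour *Igfbp2* (ENSMUSG00000039323.18; chromosome 1, 72824503-72852474, plus strand) lies 5457 bases away, and the transcripts of the pair run towards each other. *Igfbp2*, a binding protein gene known from preadipocytes and liver, was nearly silent, with 1, 7 and 8 reads for *Egr1*+/+ and 6, 23 and 4 reads for *Egr1*-/-, and it was removed by the filter on low counts. At this depth no difference in *Igfbp2* was detectable.

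*Igfbp7* (ENSMUSG00000036256.13; chromosome 5, 77349240-77408041, minus strand) encodes a related protein that binds IGFs only weakly. It had 175, 128 and 161 CPM in *Egr1*+/+ mice and 122, 94.7 and 108 CPM in *Egr1*-/- mice. The highest *Egr1*-/- mouse was just below the lowest *Egr1*+/+ mouse, and the log2 fold change was -0.52 (SE 0.153). Of its exon bases, 85 overlap *Polr2b* on the opposite strand, and whether the counting used strand is not given in the sources used here. *Igfbp4* (ENSMUSG00000017493.12; chromosome 11, 99041244-99054392, plus strand), which encodes the main substrate of the *Pappa* product, had 95.2, 114 and 88.9 CPM in *Egr1*+/+ mice and 86.1, 78.1 and 69.9 CPM in *Egr1*-/- mice. It had the smallest difference of the 6 separated genes, with a log2 fold change of -0.35 (SE 0.137) that was -0.17 without the 2 libraries richest in muscle markers.

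*Igfbp3* had a point estimate close to 0. It encodes the main IGF carrier of blood, and it is on chromosome 11 at 7206086-7213923 on the minus strand (ENSMUSG00000020427.11), 3539 bases from *Igfbp1*. It had 58.2, 107 and 98.2 CPM in *Egr1*+/+ mice and 102, 84.8 and 82.4 CPM in *Egr1*-/- mice. *Egr1*+/+ replicate 1 was the lowest of all 6 mice, and the other *Egr1*+/+ mice were within or just above the *Egr1*-/- range. The log2 fold change was 0.03 (SE 0.213) and took either sign, from -0.21 to 0.20, when 1 mouse was left out. It was 0.25 without the 2 libraries richest in muscle markers.

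*Pappa* (ENSMUSG00000028370.7; chromosome 4, 65124174-65357509, plus strand), the gene of the protease that frees IGF1 from its carriers, was counted 111, 118 and 221 times for *Egr1*+/+ and 174, 136 and 169 times for *Egr1*-/-. In CPM these were 3.23, 3.93 and 5.13 against 5.22, 4.39 and 5.46, so that 2 of the 3 *Egr1*-/- mice were above every *Egr1*+/+ mouse and the third was not. The log2 fold change was 0.29 (SE 0.212), between 0.13 and 0.49 when 1 mouse was left out, with an edgeR adjusted p of 0.693.

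**Figure D2:**
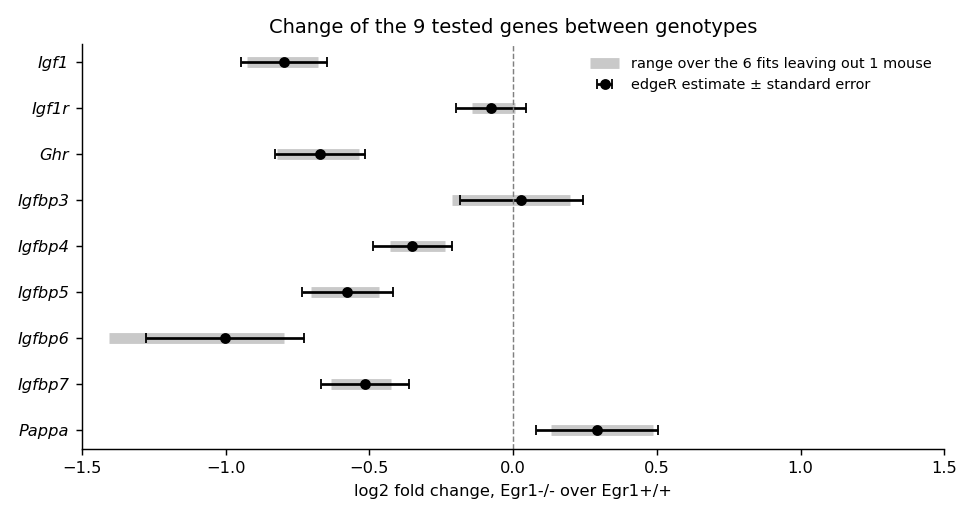
The log2 fold change of the 9 tested axis genes, *Egr1*-/- over *Egr1*+/+, with points for the edgeR estimate, black bars for 1 standard error on each side and grey bars for the range over the 6 fits that left out 1 mouse. The grey bars of *Igf1*, *Ghr*, *Igfbp4*, *Igfbp5*, *Igfbp6* and *Igfbp7* stay below 0, that of *Pappa* stays above it, and those of *Igf1r* and *Igfbp3* cross it.

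To compare the genes with each other, CPM was divided by the length of the merged exons of each gene in kilobases. On this per-length scale *Igfbp7* was highest in *Egr1*+/+ mice, at 128 ± 19.7 CPM per kilobase (SD, n = 3), and no mouse of the next gene reached its range. *Igfbp5* at 42.5 ± 7.29 and *Ghr* at 41.9 ± 7.84 came next and overlapped. *Igf1* at 28.4 ± 5.19, *Igfbp3* at 28.1 ± 8.36, *Igfbp6* at 24.8 ± 5.45 and *Igfbp4* at 22.5 ± 3.01 formed a group in which each gene overlapped its neighbour in the order. A wide step separated these from *Igf1r* at 1.27 ± 0.131, *Pappa* at 0.371 ± 0.0870 and *Igfbp2* at 0.0808 ± 0.0578, which did not overlap each other. The mRNA of the growth hormone receptor was therefore measured at a much higher level per length than that of the IGF1 receptor in this tissue.

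In *Egr1*-/- mice *Igfbp7* was again highest, at 89.5 ± 11.3 CPM per kilobase, but the order below it was different. *Igfbp3* at 28.7 ± 3.39 moved from the fifth to the second place and overlapped *Igfbp5* at 28.5 ± 3.30, while *Ghr* followed at 26.3 ± 1.69. *Igf1*, at 16.4 ± 0.216, went from the fourth place to the sixth, behind *Igfbp4* at 17.7 ± 1.83, whose range included that of *Igf1*. *Igfbp6* at 12.4 ± 5.28, *Igf1r* at 1.20 ± 0.0931, *Pappa* at 0.456 ± 0.0511 and *Igfbp2* at 0.190 ± 0.184 completed the order. These places depend on the gene length used: with the longest transcript in place of the merged exons, *Ghr* was second in *Egr1*+/+ mice at 90.9 CPM per kilobase and overlapped *Igfbp7*.

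**Figure D3:**
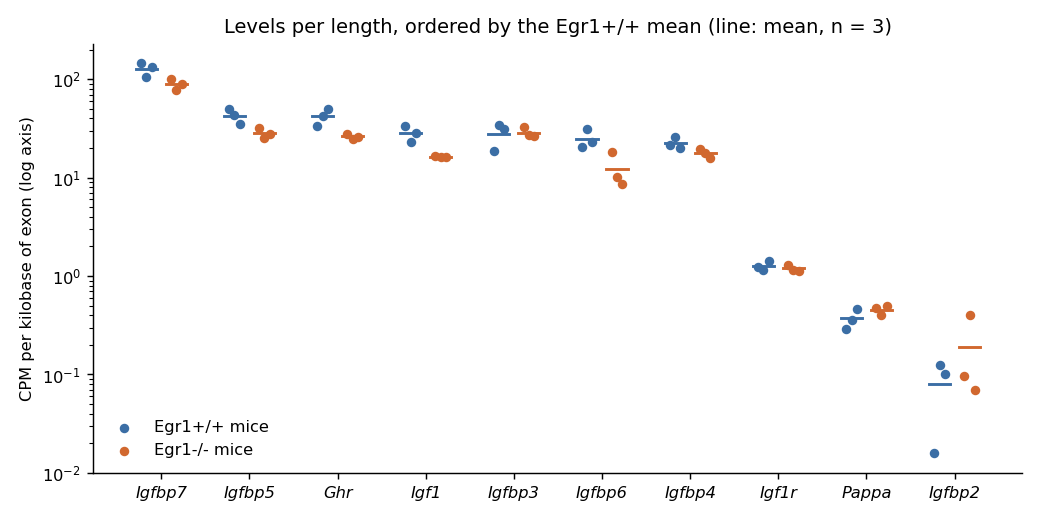
Level per length of the 10 axis genes in every mouse, in CPM per kilobase of merged exons on a log axis, ordered by the *Egr1*+/+ mean, with blue points for *Egr1*+/+, orange points for *Egr1*-/- and a line at each mean. *Igfbp7* stands alone at the top, the next 6 genes lie within 22.5 to 42.5 CPM per kilobase in the *Egr1*+/+ means, and *Igf1r*, *Pappa* and *Igfbp2* lie far below.

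The level of the ligand mRNA was also set against that of its carriers within each library, which needs no scaling between libraries. The summed level per length of the 6 binding protein genes was 255, 241 and 242 CPM per kilobase for *Egr1*+/+ and 203, 159 and 168 CPM per kilobase in *Egr1*-/- mice, so that the sum was lower in every *Egr1*-/- mouse. The ratio of *Igf1* to this sum was 0.131, 0.0961 and 0.118 for *Egr1*+/+ against 0.0817, 0.102 and 0.0968 for *Egr1*-/-. The ratios overlapped between the genotypes, with means of 0.115 ± 0.0178 and 0.0935 ± 0.0105 and a difference of -0.30 on the log2 scale. Without *Igfbp7*, the weakest IGF binder, the difference was -0.37 and the genotypes overlapped as well. Thus *Igf1* and the sum of its carriers were both lower in *Egr1*-/- mice, and their ratio overlapped between the genotypes, although the difference of -0.30 was larger than the pooled SD between mice of 0.20 on the log2 scale.

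Within that sum, *Igfbp7* made up 51.9% ± 6.77 in *Egr1*+/+ mice and 50.6% ± 2.11 in *Egr1*-/- mice. *Igfbp3* was the only binding protein gene whose share did not overlap between the genotypes, with 7.29%, 14.3% and 12.9% for *Egr1*+/+ against 16.0%, 17% and 15.7% for *Egr1*-/-. The share of *Igfbp6* was 10.1% ± 2.47 in *Egr1*+/+ mice and 6.85% ± 2.01 in *Egr1*-/- mice. The shares of *Igfbp4* and *Igfbp5* overlapped too. Shares of one sum are not independent of each other, so a higher share of *Igfbp3* goes with the lower level of the others.

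The other genes of the axis were listed by role, and none of the 53 tested genes in these 5 lists passed the edgeR threshold. The first list held 8 other ligand, carrier and receptor genes, of which 6 were tested, with a median log2 fold change of -0.14. In 2 of them, *Igf2* and *Igfals*, every *Egr1*-/- mouse was lower, as in 8.10% of all tested genes. Both passed the threshold of DESeq2, as did 2.05% of the 16275 genes with a DESeq2 adjusted p. *Igf2*, the fetal and early postnatal IGF ligand, had 142, 90.6 and 135 CPM in *Egr1*+/+ mice and 75.7, 62.7 and 68.1 CPM for *Egr1*-/-, a log2 fold change of -0.83 (SE 0.176; edgeR adjusted p = 0.172). The mRNAs of both IGF ligands thus had lower point estimates. The exons of *Igf2* share 98 bases with an antisense gene, *Igf2os*, which had 0 to 18 reads per mouse. How reads in the shared bases were counted is not given. A second annotated gene on its own strand, *Gm49394*, was not among the counted genes. *Igfals*, whose product joins IGFs and IGFBP3 in a stable complex in blood, was counted 157, 117 and 78 times for *Egr1*+/+ and 32, 36 and 43 times for *Egr1*-/-, with a log2 fold change of -1.54 (SE 0.361; edgeR adjusted p = 0.204).

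The remaining receptors overlapped between the genotypes, and the remaining carrier was nearly silent. *Igf2r*, which clears IGF2, had 115 ± 6.22 CPM in *Egr1*+/+ mice and 119 ± 8.13 CPM in *Egr1*-/- mice. *Insr*, the insulin receptor gene, had 99.5 ± 13.2 and 117 ± 11.5 CPM, a log2 fold change of 0.23 (SE 0.138). *Igfbp1*, a liver-type binding protein gene, was counted 0, 7 and 0 times for *Egr1*+/+ and 0, 1 and 0 times for *Egr1*-/- and was not tested.

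Of the 7 IGFBP proteases and their inhibitors, 1 was separated lower and 1 separated higher, beside 8.10% and 8.15% of all tested genes, and the median on the log2 fold change scale was -0.11. *Htra1*, a secreted serine protease that can cut IGFBPs, had 24.1 ± 0.510 CPM in *Egr1*+/+ mice and 17.1 ± 2.00 CPM for *Egr1*-/-, a log2 fold change of -0.49 (SE 0.120). *Stc1*, an inhibitor of the *Pappa* product, had 4.89 ± 0.751 and 6.39 ± 1.20 CPM, a log2 fold change of 0.38 (SE 0.198) with every *Egr1*-/- mouse higher. The related inhibitor *Stc2* was at 4.79 ± 0.863 and 4.47 ± 0.352 CPM. *Pappa2*, a relative of *Pappa*, had 3.02 ± 0.785 and 2.2 ± 0.930 CPM and overlapped between the genotypes.

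Downstream of the growth hormone receptor, 13 genes were tested and had a median log2 fold change of 0.16, with 3 separated higher and 0 separated lower, beside the same 8.15% and 8.10%. *Stat5b*, the main transcription factor of growth hormone signalling, had 26.9 ± 0.954 CPM in *Egr1*+/+ mice and 29.3 ± 0.851 CPM in *Egr1*-/- mice, and *Stat3* and *Socs1* were also separated, *Socs1* being named after its values were seen. *Socs1*, a feedback inhibitor, rested on 13, 11 and 16 reads for *Egr1*+/+ and 19, 23 and 13 reads for *Egr1*-/-. The differences were small for *Stat5b* and *Stat3*, with log2 fold changes of 0.13 and 0.23. *Stat5a*, a close relative of *Stat5b*, had a log2 fold change of 0.29 (SE 0.139), with overlap. *Socs2*, a target gene and feedback inhibitor of growth hormone signalling, had 10.2 ± 2.2 CPM in *Egr1*+/+ mice and 8.12 ± 1.25 CPM for *Egr1*-/-, a log2 fold change of -0.34 (SE 0.194). The genotypes overlapped for *Socs2*, and its edgeR adjusted p was 0.591.

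Downstream of the IGF1 receptor, 20 genes were tested and had a median log2 fold change of 0.03, close to that of all genes, with 3 separated higher and 1 separated lower, beside 8.15% and 8.10% of all tested genes. *Grb10*, an adaptor that dampens IGF1 and insulin receptor signalling, had 96.6 ± 5.36 CPM for *Egr1*+/+ and 69.3 ± 10.5 CPM for *Egr1*-/-, a log2 fold change of -0.48 (SE 0.134). *Foxo1*, a transcription factor that AKT holds out of the nucleus, had 45.2 ± 7.38 and 60.0 ± 4.99 CPM, a log2 fold change of 0.41 (SE 0.141) with every *Egr1*-/- mouse higher. *Pik3r2*, a regulatory subunit of PI3 kinase, had a log2 fold change of -0.36 (SE 0.145) with overlap. *Mtor*, the growth kinase, was named after its values were seen, and it had a log2 fold change of 0.28 (SE 0.117).

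The last list held 8 other genes with an IGFBP domain, and all 7 tested had a lower point estimate, with a median log2 fold change of -0.55. Of these, 3 were separated lower (8.10% of all tested genes were), namely *Ccn3*, *Kazald1* and *Crim1*. Only *Ccn3* passed the DESeq2 threshold, beside 2.05% of all genes with a DESeq2 adjusted p. *Ccn3*, a matricellular gene of the CCN family, had 13.6, 8.92 and 14.7 CPM in *Egr1*+/+ mice and 7.65, 5.20 and 4.33 CPM for *Egr1*-/-, a log2 fold change of -1.12 (SE 0.252). *Kazald1*, another secreted protein gene with an IGFBP domain, had 1.27 ± 0.103 and 0.690 ± 0.132 CPM. *Crim1*, a transmembrane protein gene, had 42.0 ± 0.368 and 33.4 ± 3.14 CPM.

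**Figure D4:**
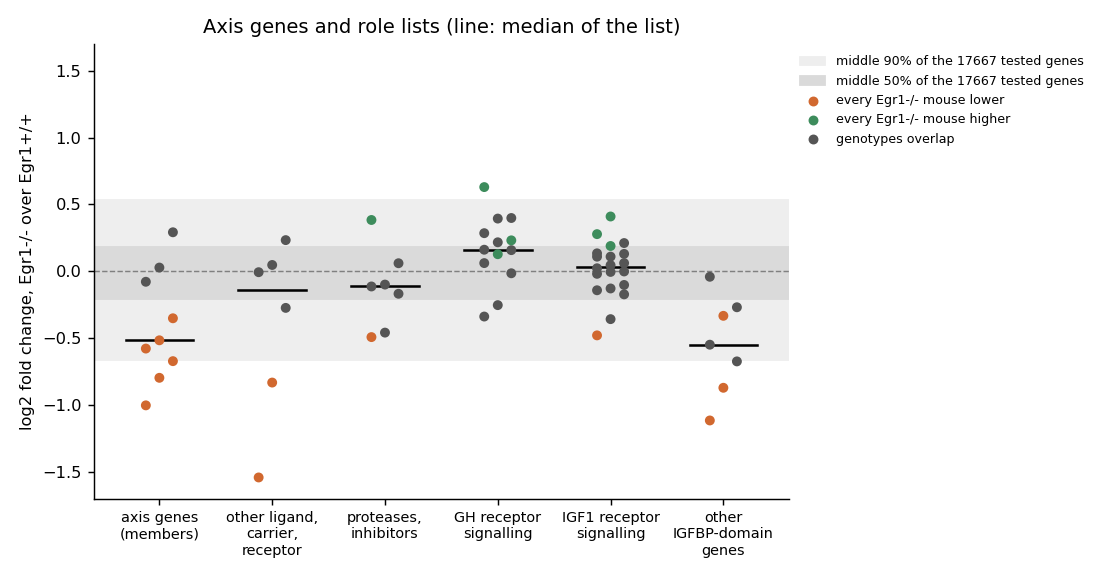
The log2 fold change, *Egr1*-/- over *Egr1*+/+, of each tested gene in the axis and in the 5 lists by role, with a line at the median of each list and grey bands for the middle 50% and 90% of all 17667 tested genes. Orange marks genes whose *Egr1*-/- mice were all lower, green those all higher and dark grey those with overlap: orange points are 6 of the 9 axis genes, and the 2 signalling lists have medians of 0.16 and 0.03.

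The markers of the cell types in the fat pad were read beside these values, and none of them passed the edgeR threshold. With DESeq2, 6 of 9 stromal progenitor, 2 of 6 macrophage, 2 of 4 Schwann and 1 of 8 adipocyte markers passed as lower. As higher, 5 of 5 tested beige adipocyte and 1 of 6 mural markers passed, and the other lists had 0. Of all genes with a DESeq2 adjusted p, 2.05% passed in either direction. Markers of the stromal progenitor, the fibroblast-like cell of fat that includes preadipocytes, had lower point estimates in *Egr1*-/- mice, as had the separated axis genes. These markers were *Pdgfra*, *Dpp4*, *Pi16*, *Cd34*, *Ly6a* and the matrix genes *Dcn*, *Lum*, *Col1a1* and *Col3a1*. The study had already reported *Dcn* and *Col1a1* as lower in these same libraries, so the list in part repeats a known result and does not measure cell number alone. All 9 had a lower point estimate, with a median log2 fold change of -0.62. Of these, 8 were separated lower, beside 8.10% of all tested genes. Their summed level was 4332 to 5105 CPM in *Egr1*+/+ mice and 2580 to 3576 CPM in *Egr1*-/- mice, so that the *Egr1*-/- mean was 64.2% of the *Egr1*+/+ mean. The corresponding figures were 57.6% for *Igf1*, 62.8% for *Ghr*, 67.0% for *Igfbp5*, 69.9% for *Igfbp7*, 78.4% for *Igfbp4* and 49.8% for *Igfbp6*. Summed macrophage markers were 325 to 448 against 251 to 302 CPM (69.6%), and summed Schwann cell markers were 226 to 316 against 148 to 189 CPM (66.8%). None of these 3 lists had a marker at 0.

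The adipocyte markers differed less, at 87.6% of the *Egr1*+/+ mean, although their sums did not overlap. Endothelial, mural and lymphocyte marker sums overlapped between the genotypes, and mammary epithelial markers summed to no more than 9.99 CPM in any mouse. Beige adipocyte markers went the other way: 5 of 6 were tested, and every *Egr1*-/- mouse was higher for each of the 5, beside 8.15% of all tested genes. These 5, *Ucp1*, *Cidea*, *Cox8b*, *Dio2* and *Ppargc1a*, were already reported by the study as higher in these same libraries. Their separation and their DESeq2 calls therefore repeat a known result and are no independent support. Their summed level was 488 to 637 CPM in *Egr1*+/+ mice and 880 to 1476 CPM in *Egr1*-/- mice. Among the *Egr1*+/+ mice, replicate 2 had the highest stromal progenitor sum, at 5105 CPM. That mouse had the highest *Igfbp4* and *Igfbp6* of its genotype but the lowest *Igf1* and *Igfbp7*, with *Ghr* and *Igfbp5* in between. *Egr1*-/- replicate 1 had the highest stromal progenitor sum of its genotype, at 3576 CPM. It also had the highest *Igf1*, *Igf1r*, *Ghr*, *Igfbp3*, *Igfbp4*, *Igfbp5*, *Igfbp6* and *Igfbp7* of the 3, although *Igf1* was nearly alike in them, at 165, 161 and 161 CPM. The same mouse had the highest adipocyte, endothelial, mural, macrophage, Schwann and mammary epithelial sums of its genotype as well, and the largest share of mitochondrial reads of all 6 mice, 66.3%. The part of the cell types in the differences of the axis genes was not tested.

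**Figure D5:**
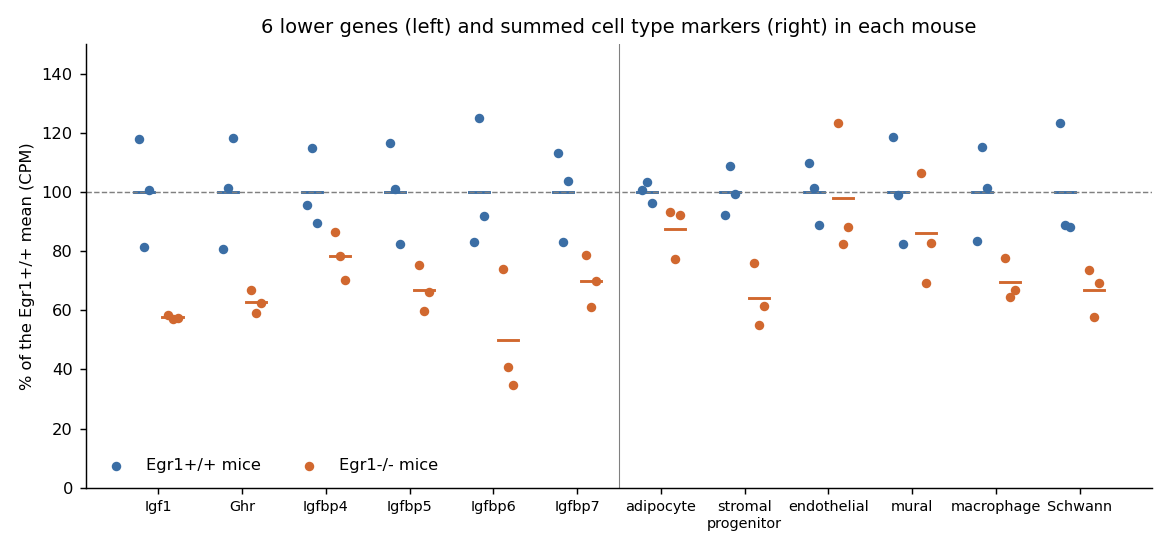
Level of the 6 axis genes whose genotypes did not overlap (left) and summed level of the markers of 6 cell types (right) in every mouse, as a percentage of the *Egr1*+/+ mean in CPM, with blue points for *Egr1*+/+, orange points for *Egr1*-/- and a line at each mean. The *Egr1*-/- means of the genes lie between 49.8% and 78.4%, those of the stromal progenitor, macrophage and Schwann markers between 64.2% and 69.6%, and those of the adipocyte markers at 87.6%.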

How the data were processed

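RNA-seq libraries of 3 *Egr1*+/+ and 3 *Egr1*-/- mice were analysed. The genotype was taken from the sample labels, no sample was left out, and the other experiments of the study were not analysed here. Ribosomal RNA was depleted and strand-specific libraries were sequenced. The labels describe the reads as single-end and the methods of the study as paired-end. The authors mapped the reads to GRCm38 with TopHat2 and Bowtie2, counted them per gene with featureCounts, and deposited these raw counts without normalization. The strand and multimapping settings of the counting are not given in the sources used here.

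Ensembl identifiers without version matched GENCODE M21 (GRCm38) for 46488 of 47069 genes, which gave names, coordinates and exon lengths. Counts were fitted in R 4.3.3 with edgeR 4.0.16 (filterByExpr, TMM, quasi-likelihood test), with Benjamini-Hochberg adjustment over the 17667 tested genes at a threshold of 0.05. CPM used TMM-scaled library sizes. The test was tried on simulated counts first. Totals were 29661984 to 42357981 counts per mouse. The SE of a log2 fold change was derived from the test, as its absolute value divided by the square root of the F statistic. It thus also reflects the spread between mice of a genotype.

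The genes of the axis, the role lists and the marker lists were chosen with earlier results of these data known. Named genes were every member of the axis, *Egr1*, *Igf2*, *Igf2r*, *Igfals*, *Igfbp1*, *Insr*, *Stat5b*, *Socs2*, *Pappa2*, *Stc1* and *Stc2*, and in each role list the genes past the threshold or otherwise up to 3 with the lowest unadjusted p. The values of 1 gene that this rule names are not reported here. Alternatives were DESeq2 1.42.0 (the study used an earlier version of this tool), other scalings, no filter on low counts, no mitochondrial genes, a replicate block, another gene length, no *Igfbp7* in the ratio, and leaving out each mouse. Leaving out the library richest in muscle markers of each genotype was added after seeing the data.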

Additional observations from a re-analysis of the deposited data

How the results depend on the processing

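The median log2 fold change of the 9 tested axis genes, -0.52, lay between -0.61 and -0.43 when 1 mouse was left out and was -0.68 with total-count scaling, which moved the median of all genes by -0.15. Over the 14 alternatives *Igf1*, *Ghr*, *Igfbp4*, *Igfbp5*, *Igfbp6*, *Igfbp7* and *Pappa* kept their sign in 14, *Igf1r* in 13 and *Igfbp3* in 11. The number of genes past the threshold, 3 with edgeR, was 334 with DESeq2, 0 with upper-quartile scaling, 79 with total-count scaling, 552 without the filter on low counts, 0 with the replicate block, 0 without the 2 libraries richest in muscle markers, and 0 to 59 when 1 mouse was left out, with 59 without *Egr1*-/- replicate 1. The number of axis genes past it, 0 with edgeR, was 4 with DESeq2, 4 without the filter, 1 with total-count scaling, and 0 to 1 when 1 mouse was left out. The number of role-list genes, 0 with edgeR, was 3 with DESeq2, 3 without the filter and 2 with total-count scaling. The median level per length of the axis genes moved from 26.48 to 31.2 CPM per kilobase with the longest transcript. The log2 difference of the *Igf1* ratio, -0.30, lay between -0.42 and -0.20 when 1 mouse was left out. The cause of these shifts was not tested.

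Mice with the same replicate number did not deviate together (correlations of -0.09, 0.11 and -0.13 over 17667 genes), so the numbers were not taken as pairs, and with the replicate block the median of the axis genes was -0.51 and 0 of them passed the threshold. Counts were few for *Igfbp2*, *Igfbp1*, *Socs1* and *Igfals*. *Pappa* had fewer counts than the other tested axis genes, but its SE of 0.212 was close to that of *Igfbp3*, 0.213.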
